A study of Mus musculus with 2 samples.

Results

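Histone lysine methylation is set by a network of genes that write, remove and read methyl groups on histone tails, and 83 of the 18919 genes in the deposited expression table have names that fall in this network. They were picked out by gene symbol: the Setd, Suv, Ezh, Smyd, Ehmt, Nsd and Whsc1 families and the Kmt2 and Prdm genes on the writer side, the Kdm genes on the eraser side, and the Cbx, Brpf, Psip1, Phf19 and Mtf2 readers, with the Polycomb subunits Suz12, Eed and Jarid2, Ash1l and Dot1l. The rule reads no expression value, though it was written with earlier results of these data known. Of the 83 names, 2 belong to the set by spelling only. Nsdhl encodes a sterol dehydrogenase of cholesterol synthesis, and Setdb2-phf11c is a readthrough transcript that shares exons with Setdb2.

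Intestinal RNA came from C57BL/6 mice that all carried the Min mutation of Apc (APCmin), which truncates this tumour suppressor and gives intestinal adenomas. The control pool carried APCmin only, and the knockout pool was APCmin; Setd2IEC-/-, that is, without Setd2 in intestinal epithelial cells, while other cell types of the gut kept the gene. Mice were 2 months old and untreated, and the RNA of 3 littermates was mixed into 1 library per genotype; the promoter that drove the deletion is not given in the sources used here. With 1 library per group no difference below has a replicate check and no p-value was computed.

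Methyl groups on histone lysines mark stretches of chromatin without altering the DNA. Writers transfer them from S-adenosylmethionine, in nearly all cases through a SET domain. Erasers remove them, either with a flavin cofactor (the Kdm1 enzymes) or with a JmjC domain, and readers bind the methylated tail through chromo, PWWP or Tudor domains. Each lysine has its own set: H3K36 methylation lies over gene bodies, H3K4 methylation at promoters and enhancers, H3K9 methylation in heterochromatin, H3K27 methylation over genes silenced by Polycomb. In the intestine, Polycomb repressive complex 2 (PRC2) is known for its part in keeping crypt progenitors dividing and lineage genes silent.

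Stretches of genome upstream of member genes are shown here because they precede the targeted gene, Setd2, the gene with the highest ratio between the pools, Suv39h1, and the gene with the lowest ratio after Setd2, Suv420h2. They come from the RefSeq promoter windows on GRCm38, the assembly that mm10 names, and hold only bases before the first annotated exon. Capitals mark matches, on either strand, to the letters of 3 of the 4 promoter motifs searched. The GC box was searched as GGGCGG, the CCAAT box as the 5 letters of its name, and the E2F-type motif as TTTCCCGC, TTTGGCGC, TTTCGCGC or TTTGCCGC. In the capitals, overlapping matches run together, and a match on the other strand appears as its reverse complement. The Setd2 stretch is chr9:110532347-110532499, plus strand, the Suv39h1 stretch is chrX:8074761-8075010, minus strand, and the Suv420h2 stretch is chr7:4739877-4740091, plus strand.
Setd2: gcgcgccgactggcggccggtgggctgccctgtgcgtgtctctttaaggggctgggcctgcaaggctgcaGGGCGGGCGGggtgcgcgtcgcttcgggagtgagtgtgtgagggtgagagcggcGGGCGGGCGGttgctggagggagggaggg
Suv39h1: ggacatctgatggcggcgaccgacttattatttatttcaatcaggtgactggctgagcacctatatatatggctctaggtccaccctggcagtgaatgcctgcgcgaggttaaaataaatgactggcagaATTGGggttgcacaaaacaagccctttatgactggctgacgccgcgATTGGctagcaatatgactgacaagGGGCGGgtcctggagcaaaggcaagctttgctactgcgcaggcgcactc
Suv420h2: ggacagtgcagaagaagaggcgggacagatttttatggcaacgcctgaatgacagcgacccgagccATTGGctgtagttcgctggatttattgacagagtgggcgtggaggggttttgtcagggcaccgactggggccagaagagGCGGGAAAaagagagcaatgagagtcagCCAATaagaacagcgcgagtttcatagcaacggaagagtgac
The Setd2 stretch held 4 GC boxes in its capitals and no CCAAT box or E2F-type motif. In the Suv39h1 stretch there were 2 CCAAT boxes and 1 GC box, and in the Suv420h2 stretch 2 CCAAT boxes and 1 E2F-type motif. Over the 250 bases before each start, the windows of 63 member genes (83 windows, since some genes have several starts) held a median of 22 CpG dinucleotides, against 15 in the 12817 windows of measured genes and 6 in all 32851 windows. The member windows include those of members outside the measured genes, such as Phf19. Setdb2 and its readthrough transcript share 1 window, which is counted for each, and some windows of the same gene overlap. A GC box was present in 66.3% of the member windows, in 55.9% of the windows of measured genes and in 32.7% of all windows. For the CCAAT box these shares were 45.8%, 35.2% and 33.8%, and for the E2F-type motif 8.43%, 3.11% and 1.86%. The fourth motif, the ETS-type CCGGAAG, was in 9.64% of the member windows, in 13% of the windows of measured genes and in 6.91% of all windows, so for it the members lay below the measured genes. The E2F-type matches lay in 7 windows, of Suv39h1, Suv420h2, Suz12, Cbx3, Brpf3, Prdm4 and Phf19, and that of Suv39h1 in a window other than the stretch printed above. These are matches of letters in a window and were not tested as binding sites.

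Expected counts summed to 8809678 in the control library and to 8646358 in the knockout library. Genes with a mean of at least 1 FPKM (fragments scaled to transcript length and library size) are called measured, which holds for 71 of the 83 members and 12791 genes in all. Markers of the labelled tissue were present in both libraries, with Vil1 at 879.5 and 719.04 FPKM and Cdx2 at 56.3 and 58.56 FPKM in the control and knockout pools. The pools also differed in cell markers. Of 25 proliferation genes, 24 had a higher level in the knockout pool (summed FPKM 492.9 against 355.01), as had 10 of 11 stem cell markers (232.3 against 154.05). Over all measured genes 62.2% had a higher level. With the knockout library divided by the median ratio of the measured genes, 22 and 10 were higher, beside 50.1% of all. Of 12 enterocyte markers 11 were lower (24488 against 33823), while all 10 exocrine pancreas genes were higher (1529 against 41.86), and none of these lists had a gene listed at 0. Paneth cell genes summed to 4488 against 8752 FPKM, most of it Defa24 (2860 against 6057), and 6 of the 8 were lower, while Pla2g2a (53.51 against 8.27) and Habp2 (5.29 against 2.14) were higher. The 5 red cell genes, 4 of them measured, summed to 239.9 against 66.06. T cell genes (198.4 against 181.2) and smooth muscle genes (602.9 against 578) were nearer to each other. In RNA from whole tissue, fewer cells of a type and less RNA per cell cannot be told apart. The part of these shifts in the values below was not tested.

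Setd2, the only enzyme known to trimethylate H3K36 in most mammalian cells, was the member with the lowest ratio between the pools. It lies on chromosome 9 (110532500 to 110618633, mm10; gene identifier 235626). Its level was 6.87 FPKM in the control pool, from 513 expected counts, and 3.47 FPKM in the knockout pool, from 254. The count ratio, knockout over control after scaling to the library totals, was 0.504, with a 95% counting interval of 0.432 to 0.587. These are exact Clopper-Pearson intervals, and they hold counting error without any spread among mice or pools. Among the 10889 measured genes with at least 100 counts in the libraries together, 98 (0.9%) had a ratio as low. Genes were compared by the log2 of knockout over control with 1 FPKM added to each, and there Setd2 stood at -0.82. This value sums all reads of the gene over all cells in the sample, so reads from undeleted exons and from cells outside the epithelium count in it. The lower Setd2 level is in the direction of the label and does not measure how complete the deletion was in epithelial cells.

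**Figure D1:**
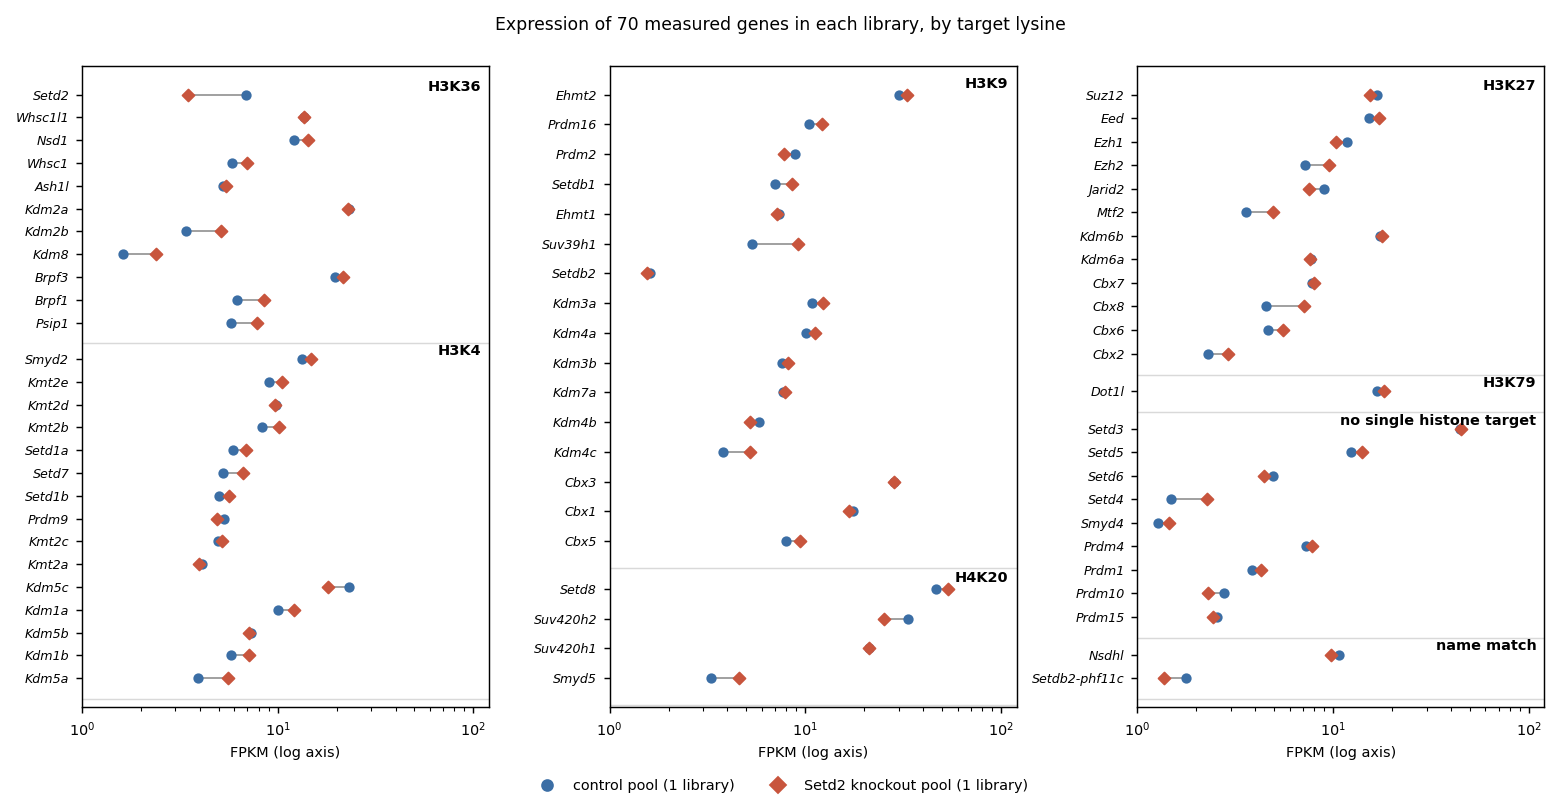
FPKM of 70 measured genes in the control pool (blue circles) and the Setd2 knockout pool (red diamonds), 1 library each, on a log axis and grouped by target lysine. Setd2 shows the widest gap, from 6.87 to 3.47 FPKM, and for most other genes both symbols nearly coincide.

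Most of the network was transcribed at similar levels in both pools, with 69 of the 71 measured members within 1.5-fold when 1 FPKM was added. The exception on the higher side was 1 gene, Suv39h1, where 7.28% of all measured genes were past 1.5-fold, and on the lower side 1 gene, Setd2, where 3.21% were. The number past 1.5-fold depends on the scale. With 5 FPKM added in place of 1, neither gene passed it. With 0.1 FPKM added, 3 members were 1.5-fold higher, beside 10.5% of all measured genes. With TPM (FPKM rescaled to the same sum in each library) 2 were, beside 9.11%. At 2-fold, 0 members were higher and 0 lower, with 2.58% and 1.13% of all measured genes past that fold. The median log2 ratio of the members was 0.12, beside 0.08 over all measured genes, and over all 83 members without a filter it was 0.09. A level above that of the control pool was found for 47 of the 71, or 66.2%, and for 62.2% of all measured genes. Both shares depend on how the libraries are scaled: when the knockout library was divided by the median ratio of the measured genes, a log2 shift of 0.09, 40 members were above 0 (56.3%, against 50.1% of all), and with edgeR's TMM factors 37 (52.1%, against 47.6%).

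The counting interval of the ratio lay above 1 for 25 members (35.2%; 27.9% of all measured genes) and below 1 for 5 (7.04%; 12.7% of all). Genes with more counts have narrower intervals, so the shares were also read among genes of like counts. Within the members' middle range, 376.5 to 1291 summed counts, 11 of 35 members had an interval above 1, beside 30.7% of the 4085 genes in that range. There, 4 of the 35 had one below 1, beside 11.2%. The other calls in that range were 1 member of 35 at least 1.5-fold higher (4.63% of the 4085 genes), 1 lower (1.64%), 0 past 2-fold in either direction (1.3% higher and 0.416% lower) and 21 above 0 (65%). The members' shares in that range were close to the background. Scaling moved these counts too, to 12 above and 9 below with the median ratio (19% and 19.5% of all genes) and to 11 and 10 with TMM (17.5% and 21.1%). Above 1 under all 3 scalings were 11 genes: Suv39h1, Cbx8, Kdm2b, Kdm5a, Mtf2, Brpf1, Kdm4c, Ezh2, Setd7, Kmt2b and Nsd1. Below 1 under all 3 were 5: Setd2, Suv420h2, Kdm5c, Jarid2 and Prdm2. Beyond these, Ezh1, Kdm2a, Kmt2d, Suz12 and Whsc1l1 were below 1 under another scaling only.

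**Figure D2:**
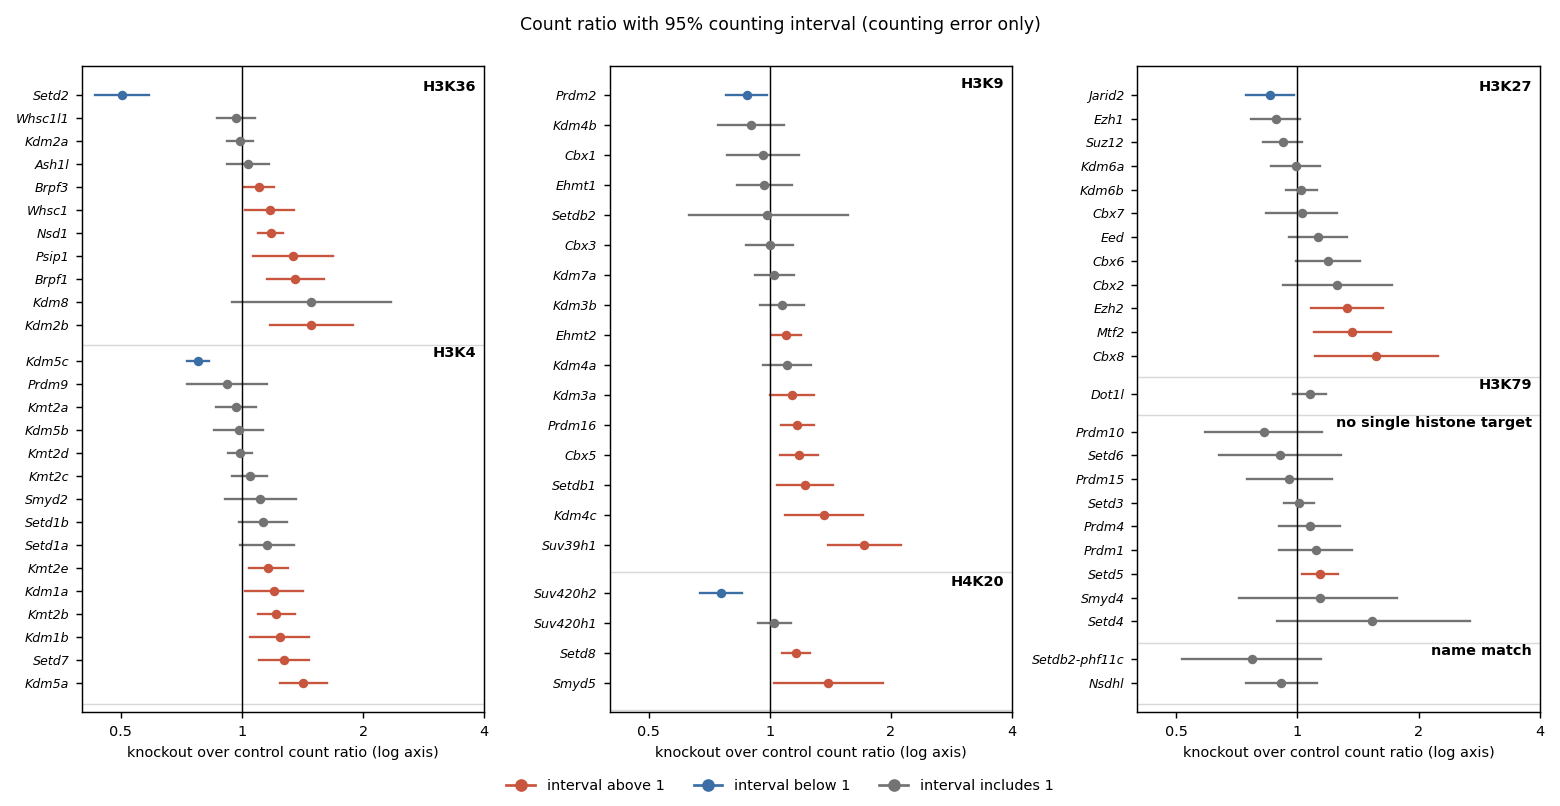
Knockout over control count ratio of 70 measured genes, scaled to library totals, with its 95% counting interval, on a log axis and sorted within each target lysine. Intervals lie above 1 for 25 genes (red), below 1 for 5 (blue) and include 1 for the rest (grey); Setd2 at 0.504 is the lowest and Suv39h1 at 1.72 the highest.

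Among the H3K36 writers other than Setd2, Nsd1 and Whsc1 had ratios above 1 and Whsc1l1 and Ash1l ratios near 1. Their counts together were 2999 in the control and 3245 in the knockout library, a ratio of 1.1 (1.05 to 1.16). That sum depends on the scaling, since with the median ratio it was 1.03 (0.983 to 1.09) and with TMM 1.02 (0.971 to 1.07). Nsd1, which mono- and dimethylates H3K36, was at 12.18 FPKM in control and 14.35 FPKM in knockout RNA, a count ratio of 1.18 (1.1 to 1.27). Whsc1, now named Nsd2 and a dimethylase of the same family, was at 5.85 and 6.94 FPKM (1.17, 1.02 to 1.35). Neither reached 1.5-fold, and the interval of Whsc1 included 1 under the other scalings. Whsc1l1, now Nsd3, was at 13.69 and 13.61 FPKM, and Ash1l, a dimethylase linked to Trithorax, at 5.28 and 5.47 FPKM. Their intervals, 0.866 to 1.07 and 0.916 to 1.17, included 1. Under TMM scaling the interval of Whsc1l1 lay below 1, and the log2 ratio of Ash1l was -0.04 with the median ratio and -0.05 with TMM. With Setd2 counted in, the 5 writers together had 3512 and 3499 counts, a ratio of 1.02 (0.968 to 1.06), which became 0.952 (0.908 to 0.998) with the median ratio and 0.940 (0.897 to 0.985) with TMM. Setd2 was at 0.564 times the FPKM of Nsd1 in the control pool and at 0.242 times in the knockout pool.

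The 3 readers of H3K36 methylation were all higher in the knockout pool as deposited, within 1.5-fold and with intervals above 1. Of all measured genes, 62.2% were higher and 27.9% had an interval above 1. Psip1, a PWWP protein (LEDGF) that ties methylated H3K36 to transcription and splicing factors, was at 5.81 and 7.81 FPKM in the control and knockout pools (count ratio 1.34, 1.06 to 1.68). About 9.5% of its annotated exonic bases are shared with Snapc3 on the opposite strand, and the sources used here do not state whether counting used strand. Brpf1, a PWWP and bromodomain scaffold of histone acetyltransferase complexes, was at 6.23 and 8.51 FPKM (1.36, 1.15 to 1.6). Its relative Brpf3 was at 19.55 and 21.55 FPKM (1.1, 1.01 to 1.20). The counts of these 3 readers together had a ratio of 1.17 (1.09 to 1.26). Only Brpf1 of them kept an interval above 1 under the other scalings tried.

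On the eraser side of H3K36, the paralogues Kdm2a and Kdm2b differed. Both encode JmjC enzymes that act on mono- and dimethylated H3K36 and bind CpG islands, and Kdm2b also brings a Polycomb complex there. Kdm2a, the more abundant, was at 23.06 and 22.79 FPKM (count ratio 0.988, 0.919 to 1.06). Kdm2b was at 3.4 FPKM (control) and 5.16 FPKM (knockout), from 122 and 178 counts (1.49, 1.17 to 1.89). The intervals of the paralogues do not overlap; 5.77% of the exonic bases of Kdm2b are shared with Rnf34 on the opposite strand. Kdm8, a JmjC protein first described as an H3K36 demethylase, was at 1.62 and 2.40 FPKM from 35 and 51 counts, and at that depth its interval of 0.947 to 2.35 included 1. Kdm4a, Kdm4b and Kdm4c also act on trimethylated H3K36, the mark that Setd2 makes, and are given with H3K9 below.

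**Figure D3:**
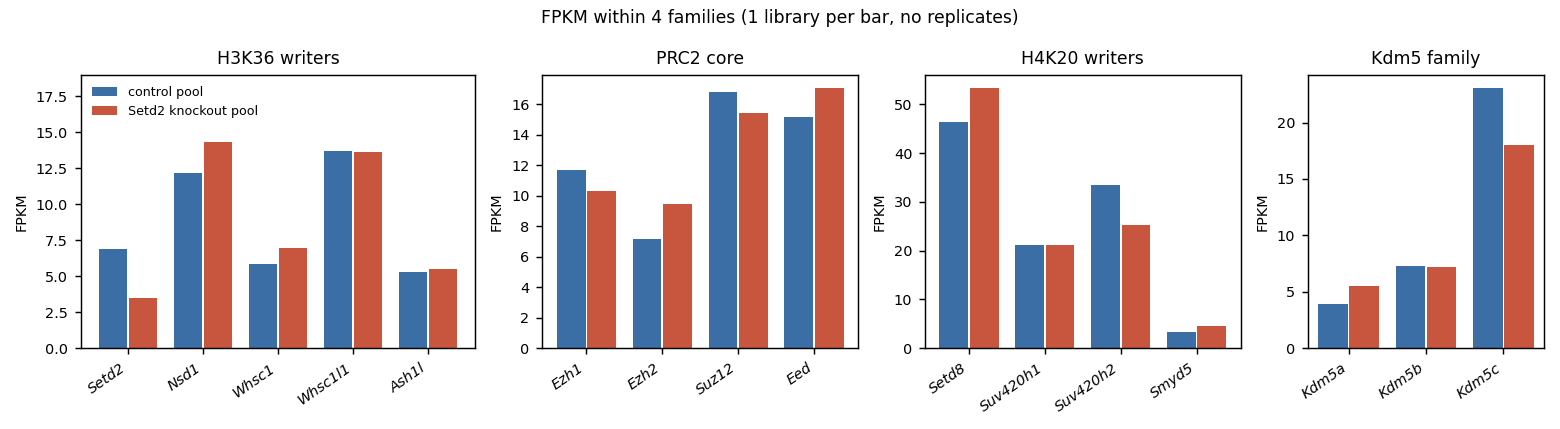
FPKM in the control pool (blue) and the Setd2 knockout pool (red) for H3K36 writers, the PRC2 core, H4K20 writers and the Kdm5 demethylases, 1 library per bar. Setd2, Suv420h2 and Kdm5c have the larger drops, and Ezh1 and Ezh2 approach each other in the knockout pool.

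H3K4 methylation has 17 members, of which 15 were measured, and none was past 1.5-fold. The KMT2 writers work in large complexes, Kmt2a and Kmt2b with menin at promoters and Kmt2c and Kmt2d at enhancers. Kmt2b was at 8.35 and 10.16 FPKM in the control and knockout pools, with a count ratio of 1.22 (1.09 to 1.35). Kmt2e, a SET domain protein without clear methylase activity, was at 9.08 and 10.56 FPKM (1.16, 1.04 to 1.3). Kmt2a at 4.11 and 3.97, Kmt2c at 4.96 and 5.19 and Kmt2d at 9.80 and 9.69 FPKM had intervals that included 1. Of this family Kmt2b alone kept an interval above 1 under all scalings tried, while Kmt2e shares 9.31% of its exonic bases with Srpk2 on the opposite strand.

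The SET1 enzymes, which make most trimethylated H3K4, were close between the pools. Setd1a was at 5.94 and 6.86 FPKM (count ratio 1.15, 0.990 to 1.35) and Setd1b at 5 and 5.64 (1.13, 0.981 to 1.29). The Setd1a value is uncertain, since 51.8% of its exonic bases are shared with the same-strand gene model Gm49388. Setd7, a monomethylase of H3K4 and of many other proteins, was at 5.25 and 6.68 FPKM (1.27, 1.1 to 1.47). It had the highest ratio of the measured H3K4 writers. Smyd2, which also methylates p53, was at 13.37 and 14.84 FPKM, and its interval of 0.907 to 1.36 included 1. Prdm9 writes H3K4 methylation at recombination sites in meiosis and is known from germ cells. It was nevertheless listed at 5.35 and 4.91 FPKM in these intestinal pools, from 164.4 and 148.2 expected counts (ratio 0.919, 0.731 to 1.16). Its counts are not whole numbers, as RSEM gives where reads fit more than 1 gene, so its level is uncertain. The remaining writers of this group were below the measured level, Smyd3 at 0.78 and 0.98 FPKM and the muscle gene Smyd1 at 0 and 0.07.

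Erasers of H3K4 methylation went in both directions within the Kdm5 family. These JmjC enzymes remove di- and trimethylation. Kdm5a was at 3.91 FPKM (control) and 5.56 FPKM (knockout), from 384 and 535 counts (ratio 1.42, 1.24 to 1.62). Kdm5c is X-linked (152233198 to 152279102), with 23.10 FPKM and 2279 counts in the control pool and 17.99 FPKM and 1742 counts in the knockout pool (0.779, 0.731 to 0.829). Kdm5b lay between them, at 7.31 and 7.18 FPKM (0.982, 0.853 to 1.13). None of the 3 intervals overlaps another. Since Kdm5c is the most abundant of the 3, the counts of the family together were lower, with a ratio of 0.886 (0.841 to 0.933). The FPKM of Kdm5a was 0.169 times that of Kdm5c in the control pool and 0.309 times in the knockout pool.

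Kdm5c escapes X inactivation in females, so the sex of the pooled mice bears on its level. Xist, the RNA of the inactive X chromosome, was at 32.37 and 26.15 FPKM, and the Y-linked genes Ddx3y, Eif2s3y and Uty were at 0.07 FPKM or less in either library. Xist was itself lower in the knockout pool, with a count ratio of 0.809 (0.776 to 0.843), close to that of Kdm5c. Kdm6a, an H3K27 demethylase that also escapes X inactivation, was at 7.69 and 7.60 FPKM (0.989, 0.859 to 1.14). Of the 4 X-linked members, Kdm5c, Kdm6a and Nsdhl were below 0 on the log2 scale and Suv39h1 above. What part X-linked dosage has in the Kdm5c value was not tested.

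The flavin-dependent erasers, which remove mono- and dimethylation of H3K4, had like ratios. Kdm1a (LSD1) was at 10.08 and 12.13 FPKM (count ratio 1.20, 1.02 to 1.42) and Kdm1b (LSD2) at 5.78 and 7.18 (1.24, 1.05 to 1.47). Both intervals included 1 under the other scalings, and Kdm1b shares 9.19% of its exonic bases with Dek on the opposite strand. Kdm1a stood at 1.74 times the FPKM of Kdm1b in the control pool and at 1.69 times in the knockout pool.

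The H3K9 group held the member with the highest ratio of all, Suv39h1, which trimethylates H3K9 in pericentric heterochromatin. It lies on the X chromosome (8061171 to 8074760) and had 5.33 FPKM from 147 counts in control RNA and 9.16 FPKM from 248 in knockout RNA. Its count ratio was 1.72 (1.40 to 2.12) and its log2 ratio 0.68, so that it passed 1.5-fold but not 2-fold. Among the 10889 measured genes with at least 100 counts together, 476 (4.37%) had a ratio as high. Its paralogue Suv39h2 was barely transcribed, at 0.90 and 0.89 FPKM from 34 and 32 counts (0.959, 0.573 to 1.6). The FPKM of Suv39h1 was 5.92 times that of Suv39h2 in the control pool and 10.3 times in the knockout pool. The proliferation genes had a median log2 ratio of 0.37 in the same direction. Mcm2 (7.03 and 18.67 FPKM) and Cdc20 (11.22 and 21.06) had the highest ratios of that list and Cdca8 (12.40 and 10.78) and Mcm3 (9.46 and 9.88) the lowest. Their part in the Suv39h1 value was not tested.

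The other H3K9 writers stayed within 1.5-fold. Ehmt2 (G9a), which with Ehmt1 (GLP) dimethylates H3K9 in euchromatin, was the most abundant H3K9 member at 30.01 and 32.87 FPKM (count ratio 1.1, 1.01 to 1.20). Ehmt1 was at 7.34 and 7.18 FPKM, and its interval of 0.829 to 1.13 included 1. Setdb1, which silences retroelements with Trim28, was at 7 and 8.58 FPKM (1.22, 1.04 to 1.43). Setdb2 was at 1.61 and 1.56 FPKM from 42 and 41 counts, and the readthrough transcript that contains it at 1.78 and 1.37. Reads of these overlapping models were divided among them, so neither value is certain. Prdm16, an H3K9 monomethylase and stem cell factor, was at 10.46 and 12.19 FPKM (1.17, 1.06 to 1.29), and Prdm2 was lower at 8.87 and 7.80 (0.876, 0.778 to 0.986). Suv39h1 alone among the H3K9 writers kept an interval above 1 under all scalings, and Prdm2 alone one below 1.

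The measured erasers and readers of H3K9 methylation stayed within 1.5-fold. Kdm4c, a JmjC enzyme of trimethylated H3K9 and H3K36, was at 3.81 and 5.20 FPKM in the control and knockout pools (count ratio 1.36, 1.09 to 1.70). Its paralogue Kdm4a was at 10.08 and 11.23 FPKM (1.1, 0.963 to 1.26) and Kdm4b at 5.80 and 5.21 (0.899, 0.743 to 1.09). Kdm4c was thus the member of this family whose interval excluded 1, while Kdm4d was listed at 0.17 and 0.09 FPKM, from 4 and 2 counts. Kdm3a, which removes mono- and dimethylation, was at 10.85 and 12.35 FPKM (1.14, 1.001 to 1.29), Kdm3b at 7.57 and 8.13, and Kdm7a, which also acts on H3K27, at 7.67 and 7.88. The HP1 proteins bind trimethylated H3K9 through a chromodomain. Cbx5 (HP1 alpha) was at 7.93 and 9.36 FPKM (1.18, 1.06 to 1.32), Cbx1 (HP1 beta) at 17.46 and 16.78 (0.961, 0.781 to 1.18) and Cbx3 (HP1 gamma) at 28.23 and 28.21 (0.999, 0.875 to 1.14). Cbx3 was the most abundant reader and was the same in both pools within counting error.

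H3K27 methylation is written by PRC2, in which Ezh1 or Ezh2 is the catalytic subunit and Suz12 and Eed are required partners. Ezh2, the form typical of dividing cells, was at 7.16 FPKM (control) and 9.50 FPKM (knockout), from 169 and 220 counts (ratio 1.33, 1.08 to 1.63). Ezh1, typical of resting cells, was at 11.73 and 10.35 FPKM, from 441 and 382 counts (0.883, 0.768 to 1.01). The intervals of Ezh1 and Ezh2 do not overlap. The FPKM of Ezh2 was 0.610 times that of Ezh1 in the control pool and 0.918 times in the knockout pool. Suz12 was at 16.85 and 15.46 FPKM (0.919, 0.822 to 1.03) and Eed at 15.19 and 17.11 (1.13, 0.954 to 1.33). All 4 core genes together had a count ratio of 0.990 (0.922 to 1.06), an interval that includes 1. With the median ratio the sum was at 0.928 (0.864 to 0.997) and with TMM at 0.917 (0.854 to 0.985), and the intervals of Ezh1 and Suz12 lay below 1 under both. Of the proliferation markers counted above, 24 of 25 (22 with the median ratio) were higher in the same pool as Ezh2. Their part in the Ezh2 value was not tested.

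Accessory subunits of PRC2 also went both ways. Jarid2, which helps to bring the complex to its targets, was at 9.02 and 7.57 FPKM (count ratio 0.856, 0.746 to 0.983). Mtf2, a Tudor protein that binds methylated H3K36 and links PRC2 to CpG islands, was at 3.58 and 4.94 FPKM (1.37, 1.1 to 1.71). Both intervals kept their side of 1 under all scalings tried; Mtf2 shares 6.93% of its exonic bases with Tmed5 on the opposite strand. Phf19, a relative of Mtf2, was below the measured level at 0.78 and 0.46 FPKM from 26 and 15 counts, and its interval of 0.289 to 1.15 was too wide to place it.

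Cbx2, Cbx6, Cbx7 and Cbx8 encode Polycomb readers, which bind trimethylated H3K27 within PRC1. Each had a higher deposited FPKM in the knockout pool, as had 62.2% of all measured genes. With the median ratio as scale, Cbx7 was lower. Cbx8 was at 4.53 FPKM (control) and 7.09 FPKM (knockout), from 56 and 86 counts (ratio 1.56, 1.1 to 2.23). It had the highest log2 ratio after Suv39h1 among all members, 0.55, just under 1.5-fold on the scale used. Cbx2 at 2.30 and 2.89 and Cbx6 at 4.67 and 5.56 FPKM were higher by less than counting error could show, while Cbx7 was level at 7.76 and 7.95. Neither H3K27 demethylase differed beyond counting error. Kdm6a is given above, and Kdm6b, which is induced in inflammation, was at 17.42 and 17.82 FPKM (1.02, 0.938 to 1.12).

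H4K20 methylation is built in steps, and the genes of its steps had ratios on both sides of 1. Setd8 (now Kmt5a) adds the first methyl group during the cell cycle and was the most abundant member of all, at 46.47 FPKM (control) and 53.44 FPKM (knockout) (count ratio 1.16, 1.07 to 1.26, with an interval that included 1 under TMM scaling). Suv420h1 (Kmt5b), which adds the next groups, was at 21.15 and 21.25 FPKM (1.03, 0.934 to 1.13). Suv420h2 (Kmt5c), which trimethylates H4K20 in heterochromatin, was at 33.46 and 25.34 FPKM, from 662 and 492 counts. Its ratio of 0.757 (0.672 to 0.852) was the lowest of any member after Setd2 among measured genes. The order of the Suv420h paralogues was the same in both pools, with Suv420h1 at 0.632 and 0.839 times the FPKM of Suv420h2. Setd8 stood at 1.39 times Suv420h2 in the control pool and at 2.11 times in the knockout pool. Smyd5, reported to trimethylate H4K20, was at 3.29 and 4.59 FPKM (1.40, 1.02 to 1.91). The 4 genes together had a count ratio of 1.03 (0.973 to 1.08). Dot1l, the H3K79 writer that has no SET domain, was at 16.85 and 18.10 FPKM (1.07, 0.977 to 1.18).

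**Figure D4:**
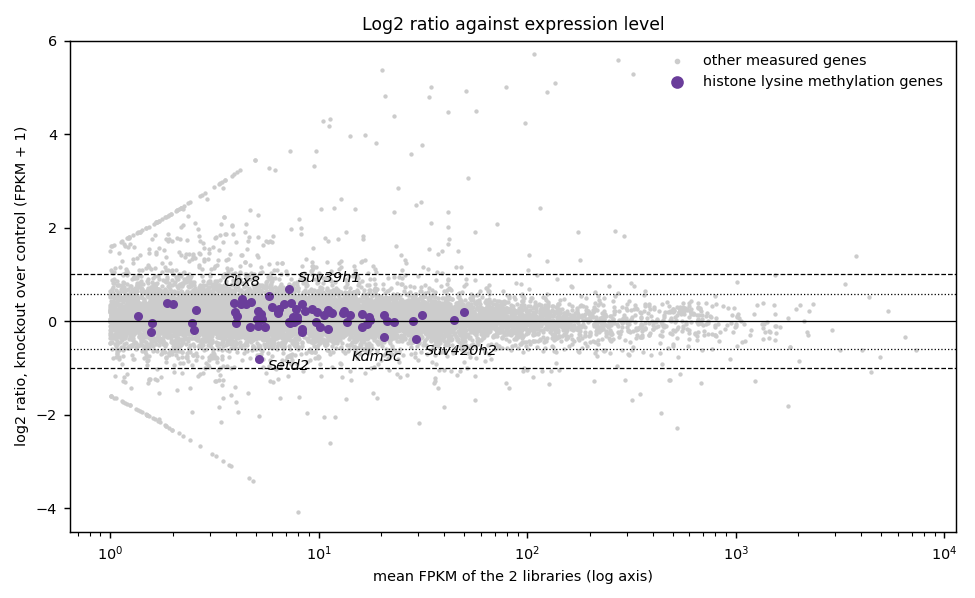
Log2 ratio of knockout over control (1 FPKM added) against the mean FPKM of both libraries on a log axis, for all 12791 measured genes (grey) and the 71 measured members (purple); dotted lines mark 1.5-fold and dashed lines 2-fold. The members lie between -0.82 (Setd2) and 0.68 (Suv39h1), within the cloud of other genes and inside the 2-fold lines.

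With 1 FPKM added, members without a single histone target stayed within 1.5-fold, most of them with intervals that included 1. Setd3, which methylates a histidine of actin, was at 44.33 and 44.83 FPKM in the control and knockout pools. Setd5 was at 12.33 and 14.01 FPKM (count ratio 1.14, 1.03 to 1.26), Setd6, which methylates the NF-kappaB subunit RelA, at 4.91 and 4.45, and Smyd4 at 1.27 and 1.45. Setd4 was at 1.49 and 2.28 FPKM from 24 and 36 counts. Its count ratio of 1.53, which has no FPKM added, was past 1.5-fold. The interval of that ratio, 0.887 to 2.68, was too wide to place it. Setd5 was the SET domain gene of these whose interval excluded 1, and it included 1 under the other scalings. Of the PRDM zinc finger factors, Prdm1 (Blimp1), which acts in plasma cells and in the immature gut epithelium, was at 3.87 and 4.29 FPKM (1.11, 0.902 to 1.37). Markers of B and plasma cells were mixed, with 6 of 10 higher in the knockout pool and a summed level of 958.3 against 807.05 FPKM. Prdm4 was at 7.30 and 7.82 FPKM, Prdm10 at 2.77 and 2.29 and Prdm15 at 2.54 and 2.43, all with intervals that included 1. Nsdhl was at 10.67 and 9.73 FPKM. The PRDM factors Prdm6, Prdm8, Prdm11, Prdm12, Prdm13 and Prdm14, several of them known from neurons or germ cells, were at 0.25 FPKM or less in both libraries.

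By role, the readers had the highest median. Mtf2 and Phf19 were counted here as accessory subunits, not as readers, and Suz12, Eed and Kmt2e among the writers. Of 11 readers, 9 had a log2 ratio above 0 and 5 an interval above 1, with 0 below, and their median log2 ratio was 0.21. The 31 measured writers had a median of 0.13, with 12 intervals above 1 and 3 below, and the 16 measured erasers one of 0.12, with 6 above and 1 below. Over all measured genes these shares were 62.2% above 0, 27.9% with an interval above 1 and 12.7% with one below. Under TMM scaling 2 readers had an interval above 1 and 0 below, 5 writers above and 7 below, and 3 erasers above and 2 below. Of all measured genes, 17.5% lay above and 21.1% below under that scaling. The difference between the roles was not tested, and the members of a role are not replicates. By target, the medians were 0.21 for H3K36, 0.16 for H3K27, 0.15 for H3K4, 0.11 for H3K9 and 0.10 for H4K20, beside 0.08 over all measured genes.

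The partners of these enzymes outside the name rule were read from 4 lists. Among 12 Trithorax and COMPASS subunits, which serve the H3K4 writers, 6 were above 0 on the log2 scale and 6 below, with a median of 0.02. Their highest ratios were those of the scaffold Wdr5 (11.41 FPKM in the control and 13.84 in the knockout pool) and Hcfc1 (8.85 and 10.30), and the lowest those of Ncoa6 (8.17 and 7.11) and Pagr1a (22.64 and 20.42). Among 18 other PRC1 and PRC2 genes, 13 were above 0, 9 had an interval above 1 and 0 one below, and the median was 0.22. With the median ratio 6 intervals lay above 1 and 0 below, and with TMM 6 above and 2 below. Over all measured genes 62.2% were above 0, 27.9% had an interval above 1 and 12.7% one below, and with TMM 17.5% and 21.1%. Phc1, a PRC1 subunit, was at 2.37 and 3.86 FPKM (count ratio 1.58, 1.19 to 2.12), and Rbbp7, a histone chaperone shared by many complexes, at 34.57 and 49.86 (1.44, 1.31 to 1.59). Pcgf1 (4.98 and 4.17) and Bmi1 (5.04 and 4.28) had the lowest ratios, with intervals that included 1. The median of the COMPASS list lay below that of all measured genes, 0.08, and the median of the Polycomb list above it.

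Partners of H3K36 methylation and of heterochromatin had medians above 0. Of 15 measured H3K36 partners and readers, 12 were above 0 (8 when scaled by the median ratio), with a median of 0.09. Intervals lay above 1 for 6 of them and below 1 for 0, and with TMM for 4 and 2. Over all measured genes 62.2% were above 0 (50.1% with the median ratio), with a median of 0.08. Of all measured genes, 27.9% had an interval above 1 and 12.7% one below. These shares were 19% and 19.5% with the median ratio, and 17.5% and 21.1% with TMM. The mismatch repair protein Msh6, which binds trimethylated H3K36, was at 4.82 and 6.38 FPKM in the control and knockout pools (count ratio 1.32, 1.09 to 1.61). Dnmt3a, a DNA methylase guided by H3K36 methylation, was at 4.59 and 6.03 FPKM (1.31, 1.14 to 1.49). Lowest were Setmar (1.27 and 1.01) and Phf1 (20.51 and 19.13), both with intervals that included 1. The mean level of Dnmt3b was under 1 FPKM, at 0.44 and 1.24. All 12 heterochromatin partners were above 0 (11 when scaled by the median ratio), with a median of 0.32 and 7 intervals above 1 (4 under either other scaling). Mecom, a PRDM family gene whose symbol the name rule does not catch, was at 3.87 and 8.14 FPKM (2.04, 1.66 to 2.51), and Trim28, the partner of Setdb1, at 26.85 and 36.64 (1.36, 1.24 to 1.5). Atrx (5.54 and 5.55) and Phf8 (4.21 and 4.78) had the lowest ratios of that list. Of the heterochromatin list, Uhrf1, Dnmt1, Hells, Chaf1a and Chaf1b work at replication forks, and the proliferation list had a median of 0.37 in the same direction; its part in these values was not tested.

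**Figure D5:**
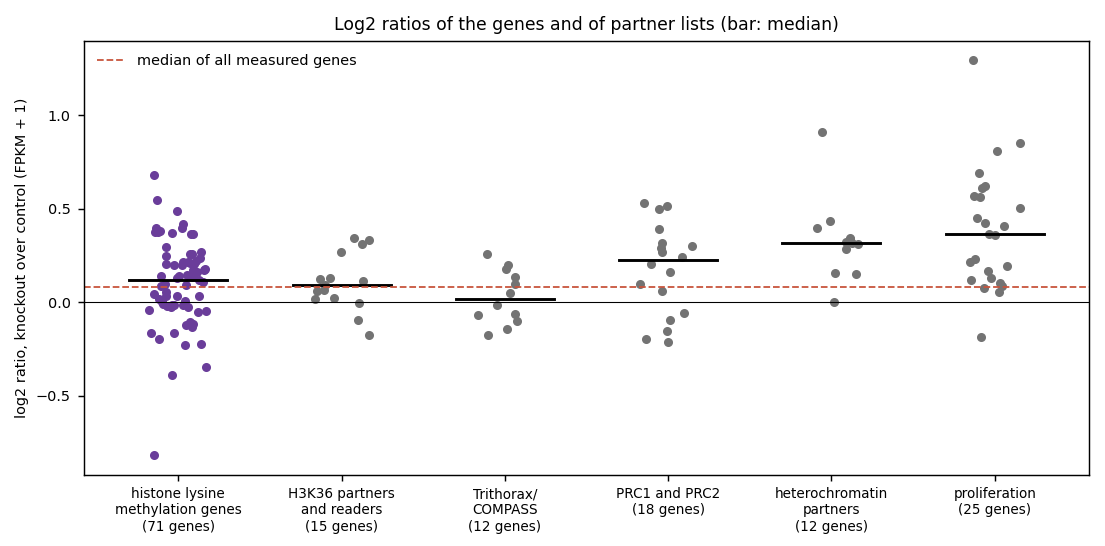
Log2 ratio of knockout over control (1 FPKM added) for the 71 measured members (purple), 4 partner lists and the proliferation list (grey), with the median of each as a bar and the median of all measured genes, 0.08, as a dashed line. The members' median is 0.12, and the list medians run from 0.02 for Trithorax and COMPASS to 0.37 for proliferation.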

How the data were processed

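Intestinal RNA of 2 pools was sequenced, 1 library per genotype from 3 littermates each. Per the labels' protocols, reads were mapped to mm10 with BWA and Bowtie and genes were quantified with RSEM; the submitters' processing notes name Bowtie2, BWA and RSEM, and versions are not given in the sources used here. Per the file headers, the deposited files list the authors' expected counts, and the deposited FPKM with 2 decimals; the series table holds the same FPKM, with 0 for genes that a sample file does not list. RSEM divides reads that fit several genes, and 62 of the 83 members had whole counts in both libraries. All 83 gene identifiers were found in the RefSeq table of GRCm38, where 6 carry another symbol.

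Members were found by symbol, and members and gene lists were chosen with earlier results of these data known. A gene was measured at a mean FPKM of 1 or more. Ratios used FPKM with a pseudocount of 1, and calls a fold of 1.5 or 2. Count ratios were scaled to library totals with 95% Clopper-Pearson intervals of the rounded counts. There were no replicates, so no test was run. Not every member is named, since the results of some items are not reported here, though the counts over all members include them; count ratios with intervals are given mainly for Setd2, for members past 1.5-fold, for those whose interval excluded 1 and for the extremes of each group. For other lists, the 2 highest and 2 lowest ratios and any gene past 2-fold were to be named, and others named from them were chosen after their values were seen. Intervals and calls were tested on simulated counts for the 12791 measured genes of this comparison, drawn with counting error only. The true ratio lay within the interval of 95.7% of unchanged genes, 1.33% of which passed 1.5-fold. Of 50 genes set to a true fold of 2, 92% passed 1.5-fold and 20% passed 2-fold. Of 50 set to a true fold of 1.5, 36% passed 1.5-fold. Exons shared between genes were counted in GENCODE M21, where 82 members were found. Scalings of summed counts and of partner intervals were added after seeing the data. Alternatives were other pseudocounts, filters, scalings and CPM (counts scaled to library size). Python 3.11.15, scipy 1.17.1 and edgeR 4.0.16 (TMM factors only) were used.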

Additional observations from a re-analysis of the deposited data

How the results depend on the processing

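The 9 alternatives set for the main values were pseudocounts of 0.1 and 5 FPKM, no filter, an FPKM of 1 in at least 1 library, a mean of 5 FPKM, median ratio scaling, TPM, TMM scaling and CPM (counts scaled to library size). Setd2 was the lowest measured member as deposited; its log2 ratio of -0.82 became -0.49 with a pseudocount of 5 FPKM. With that pseudocount 0 members were 1.5-fold higher and 0 lower, with 0.1 FPKM 3 were higher, and with TPM 2. The median of the members, 0.12, was 0.0284 with TMM scaling. In each of the 9, 0 members were past 2-fold in either direction. Intervals above 1 fell from 25 members to 12 with the median ratio and 11 with TMM, and intervals below 1 went from 5 to 9 and 10; these scalings of the intervals were chosen after seeing the data. Of the 70 measured members besides Setd2, 37 were above 0 and 21 below 0 in every setting that kept them, and 12 had both signs. No paired analysis was possible because each genotype had 1 library and the labels give no replicate numbers. Leaving out a library was not possible either. Depth limits the members with few counts: at 24 and 36 counts the interval of Setd4 ran from 0.887 to 2.68, and a floor of 3 counts corresponds to 0.341 CPM in the control and 0.347 CPM in the knockout library.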
